A study of Homo sapiens with 9 samples.

Results

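Clone A4 and clone A1 are derivatives of U2-OS, an established human osteosarcoma cell line, and both were made to overexpress the cap binding protein NCBP2. All 6 libraries of these clones, 3 (replicates A, B and C) from each, were compared here, out of 9 libraries in the series. The members were taken by the library titles, with CbcA1 and CbcA4 as the clone names. The other 3 libraries (replicates A, B and C) came from 3 clones obtained in the same way with an empty vector, 1 library per clone, and are given as a reference level. Both clones share the NCBP2 vector, the parent line and the growth medium, and the labels name no allele, dose or time that separates them. Each is a clonal line, so a difference between A4 and A1 is a difference between 2 clones that also differ in NCBP2 level, and the effect of that level cannot be told apart from other differences between the clones. The p-values measure the spread between libraries within the groups, pooled over the 2 clones and the vector group. The labels do not say whether the 3 libraries of a clone were separate cultures, so their spread may be technical. In the vector group the spread is also that between clones.

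Together with NCBP1, NCBP2 forms the nuclear complex that holds the methyl-guanosine cap of newly made transcripts. This complex takes part in splicing, in 3′ end formation of replication-dependent histone mRNAs and in export of small nuclear RNAs and mRNAs. Clones grown from single cells of an aneuploid line such as U2-OS can differ in gene copy number and in which genes are silent, whatever was introduced into them.

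Counts on the strand of annotated genes ranged from 29234022 to 46845294 in the 6 clone libraries, and total reads were higher in every A4 library than in every A1 library (exact permutation test, two-sided, p = 0.1, the smallest that 3 against 3 allows). Replicate A of clone A1 had the lowest depth and the lowest correlation of log2 CPM (CPM is the count scaled to a common library size by TMM, a correction for differences in RNA composition) with the other libraries, 0.899 to 0.928. Of 8 mesenchymal markers, 7 had counts in all 6 libraries, with summed levels of 4152 to 5351 CPM in A1 and 5096 to 6103 CPM in A4. COL1A2 was nearly absent (at most 0.317 CPM in any clone library). Of the markers read for U2-OS, TERT and CDKN2A had no counts in any clone library, while ATRX held 307 to 764 CPM. Summed markers of epithelial, blood, endothelial, neuronal and muscle cells were at most 9.29 CPM in any clone library.

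NCBP2 itself was measured at 299, 348 and 305 CPM in A1 replicates A, B and C and at 796, 1035 and 456 CPM in A4. The vector libraries held 98.4, 90.6 and 98.3 CPM. All 3 A4 libraries were above all 3 A1 libraries, and all clone libraries were above the vector libraries. The A4 libraries differed more among themselves than those of A1 (SD 291 against 27.0 CPM). The A4 minus A1 difference was 1.26 on the log2 scale (SE 0.24) and missed the threshold (edgeR quasi-likelihood test, adjusted p = 0.0764). Leaving out replicate C of clone A4, the lowest of its clone, gave 1.51 with an adjusted p of 0.00681. Over all alternatives tried the adjusted p ranged from 1.76e-06 to 0.346. Against vector, NCBP2 was called in both clones, by 1.73 (SE 0.24, adjusted p = 0.0327) in A1 and by 2.99 (SE 0.25, adjusted p = 0.000417) in A4. In bulk libraries, fewer cells with a transcript and less of it per cell cannot be told apart.

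Of 21682 genes tested, 35 (0.161%) passed an adjusted p of 0.05 between the clones by edgeR's quasi-likelihood test and are referred to as called. Lower in A4 were 26 genes (0.12%), and higher in A4 were 9 (0.0415%). At an unadjusted p under 0.05 there were 1437 genes, 826 higher and 611 lower. Called genes were 28 protein-coding genes, 5 long noncoding RNAs, 1 pseudogene and 1 unclassified locus, and the values of A4 and A1 did not overlap in any of them. Over all genes tested the clones did not overlap in 1718 genes that were higher in A4 (7.92%) and in 1241 that were lower (5.72%). The median difference over all genes was 0.04 on the log2 scale. Against vector, by the same fit, 14 genes (0.0646%) were called in A1 and 25 (0.115%) in A4.

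The number of calls depended on single libraries. It was 27, 15 and 13 without replicate A, B or C of A1, then 10, 15 and 16 without those of A4, and 23, 56 and 23 without those of the vector. The 9 genes called in all of these fits were H2AC8, H2BC8, GATA6, GREB1L, LRRC17, ADD2, LINC02074 and ENSG00000280079, all lower in A4, and GALNT15, higher in A4. The other 26 lost the call in 1 or more of the 9 fits and kept it in 1 to 8 of them, with a highest adjusted p between 0.0548 (ENSG00000287424) and 0.271 (GPRC5A). GRIK2, KIAA1217, MLPH, MATN2, KLRK1-AS1, RRN3P1 and ENSG00000250132 kept it in 1 fit each.

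**Figure D1:**
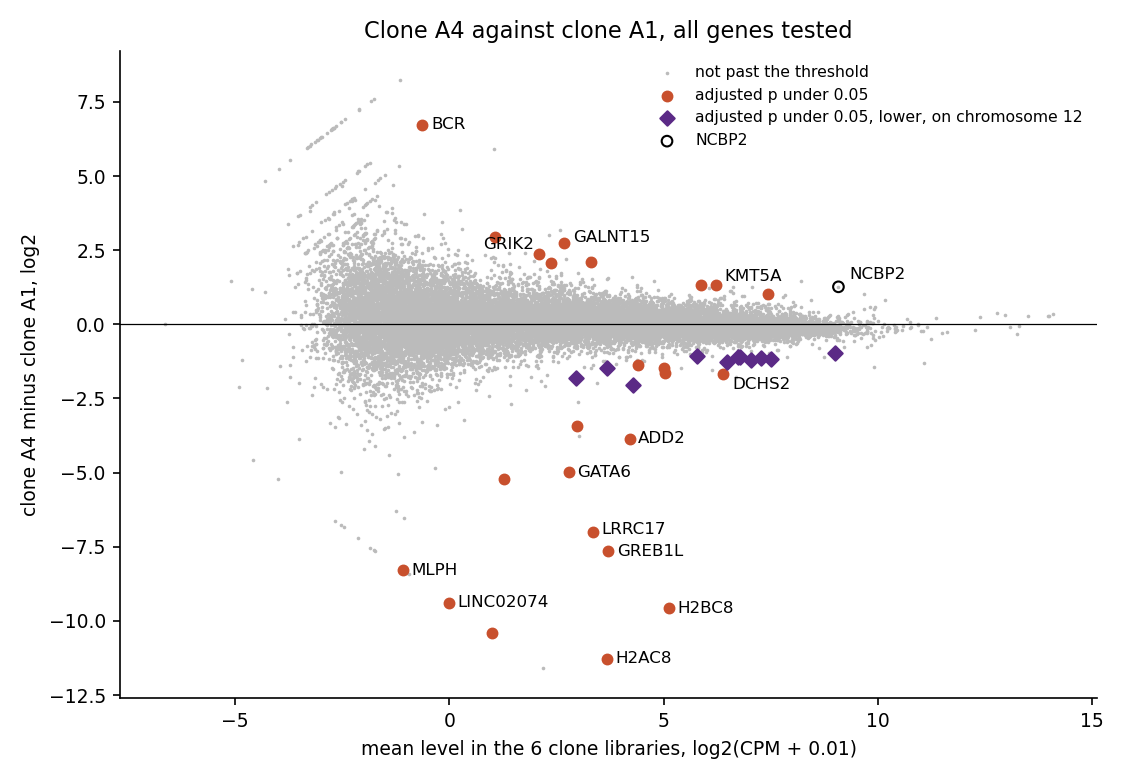
Difference between the clones (A4 minus A1, log2, vertical axis) against the mean level in the 6 clone libraries (log2 of CPM + 0.01, horizontal axis) for the 21682 genes tested. Coloured points are the 35 called genes, diamonds those that are lower on chromosome 12, which sit near a difference of -1 at high levels, while H2AC8, H2BC8, GREB1L and LRRC17 lie below -6.

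H2AC8, the called gene with the largest fitted difference, and its neighbour H2BC8 were expressed in A1 and nearly absent in A4. H2BC8 and H2AC8 encode replication-dependent H2B and H2A histones, whose mRNAs end in a stem-loop in place of a poly(A) tail. They stand back to back on chromosome 6 (GRCh38, GENCODE 44: H2BC8 at chr6:26216200-26216688 on the minus strand, H2AC8 at chr6:26216921-26217437 on the plus strand), with 233 bases between their starts. H2BC8 was measured at 53.8, 81.3 and 72.3 CPM in A1 and at 0.0420, 0.205 and 0.0224 CPM in A4. Vector libraries held 0, 0.0976 and 0.195 CPM, so that A4 and vector were both at or near 0. By the raw counts, 7627 in A1 and 12 in A4, the ratio was 801 (95% interval 458 to 1551, counting error only). The fitted difference was -9.56 (SE 0.66, adjusted p = 4.55e-05).

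H2AC8 was measured at 15.2, 30.0 and 30.9 CPM in A1 and at 0, 0 and 0.0224 CPM in A4, with 0, 0.273 and 0 CPM in the vector libraries. Its 2862 counts in A1 stood against 1 count in A4, a ratio of 3607 (95% interval 647 to 142513). Clone A1 was thus high, and A4 and the vector libraries were at or near 0, for both genes. Both were called in A1 against vector (adjusted p = 9.41e-05 for H2BC8 and 0.00448 for H2AC8) and neither in A4 against vector (adjusted p = 1 and 0.971). Within 1 Mb, 24 other histone genes were tested and 0 were called. Of all genes 0.161% were called, so 24 genes are too few to show whether the difference was confined to the pair. The clones overlapped in 23 of the 24, while 7.92% of all genes were higher and 5.72% lower without overlap. In these 23 the difference ran from -1.21 to 0.79 with a median of -0.07, and 14 were on the lower side in A4. H2BC7, 16.7 kb away, held 153 CPM in A1 and 151 CPM in A4 on average, and H4C5, 11.6 kb away, 68.6 and 70.1 CPM. H1-1, a linker histone, held 150.8 and 97.4 CPM (-0.63), and H3C2 held 287 and 219.8 CPM (-0.39). The one without overlap, the low-level gene H3C6, 8.0 kb away, differed in the other direction, with 1.72, 0.242 and 1.36 CPM in A1 and 8.25, 10.4 and 8.11 CPM in A4, and was not called (3.01, SE 0.55, adjusted p = 0.0698). Within 1 Mb of H2BC8, 52 other genes were tested, 1 of which was called (H2AC8), with a median difference of -0.16.

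The genes share their upstream sequence, which is printed because they differed together. It is the RefSeq window of H2AC8 on GRCh38.p14, chr6:26216671-26216970, plus strand, 250 bases before the start to 50 after it, and 268 of its bases also lie in the window of H2BC8. Capitals mark matches on either strand to the octamer ATGCAAAT, to CCAAT and to TATAAA.
H2AC8: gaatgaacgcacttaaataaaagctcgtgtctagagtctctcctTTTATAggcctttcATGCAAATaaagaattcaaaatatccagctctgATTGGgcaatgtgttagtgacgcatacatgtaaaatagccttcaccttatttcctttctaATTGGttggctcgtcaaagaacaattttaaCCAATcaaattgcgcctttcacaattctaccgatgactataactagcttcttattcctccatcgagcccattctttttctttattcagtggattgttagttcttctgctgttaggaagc
The window held 1 octamer, 3 CCAAT and 1 TATAAA matches. These strings occur in 1.77%, 34.6% and 11.5% of the 35116 RefSeq promoter windows of this length. Relative to the start of H2BC8, the TATAAA match began at -32 and the octamer at -48.

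GATA6 and GREB1L, both on the long arm of chromosome 18, were expressed in A1 and in the vector clones and nearly absent in A4. GATA6 is a zinc finger transcription factor of heart and endoderm development, and GREB1L is a developmental gene needed for kidney formation. GREB1L (chr18:21242232-21526112, plus strand) held 30.2, 24.8 and 22.6 CPM in A1 and 0.0420, 0.227 and 0.112 CPM in A4. Its vector levels, 19.1, 21.1 and 19 CPM, lay just below those of A1. By counts, A1 exceeded A4 by a ratio of 203 (95% interval 127 to 350), and the fitted difference was -7.65 (SE 0.42, adjusted p = 6.44e-06). Counted without regard to strand, the difference was -2.84 and remained called (adjusted p = 0.000463, range over all alternatives 5.06e-72 to 0.000512).

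GATA6 (chr18:22169589-22202528, plus strand), whose start lies 927.4 kb downstream, held 12.9, 13.3 and 13.8 CPM in A1 and 0.189, 0.773 and 0.291 CPM in A4. Vector libraries held 15.1, 14.7 and 11.5 CPM, overlapping A1. The ratio of A1 to A4 was 32.6 (95% interval 25 to 43.4), and the fitted difference was -4.99 (SE 0.45, adjusted p = 0.000569). Both genes were called in A4 against vector (adjusted p = 1.06e-05 for GREB1L and 0.000417 for GATA6) and neither in A1 against vector (adjusted p = 0.804 and 0.988). Between them lie ESCO1, SNRPD1, ABHD3 and MIB1, none of which was called. The low-level loci RN7SL233P (0.15) and SNORA73 (0.89) also lie there, differed in the other direction and were not called. MIB1, a ubiquitin ligase of the Notch pathway, held 218, 162 and 131 CPM in A1 and 104, 84.7 and 83.3 CPM in A4 (-0.91, SE 0.24, adjusted p = 0.308). SNRPD1, a core protein of spliceosomal snRNPs, held 90.6, 65.6 and 78.0 against 45.7, 50.3 and 38.2 CPM (-0.80, SE 0.19, adjusted p = 0.235). In the 10 genes tested within 1 Mb of GATA6, GREB1L included, the median difference was -0.79. Of these, 5, again with GREB1L, were lower in A4 without overlap, against 5.72% of all genes.

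The promoters of both genes, printed because the pair was lost together, were rich in CG dinucleotides, which are in capitals. They are RefSeq windows on GRCh38.p14, plus strand, at chr18:21241982-21242281 for GREB1L and chr18:22169339-22169638 for GATA6.
GREB1L: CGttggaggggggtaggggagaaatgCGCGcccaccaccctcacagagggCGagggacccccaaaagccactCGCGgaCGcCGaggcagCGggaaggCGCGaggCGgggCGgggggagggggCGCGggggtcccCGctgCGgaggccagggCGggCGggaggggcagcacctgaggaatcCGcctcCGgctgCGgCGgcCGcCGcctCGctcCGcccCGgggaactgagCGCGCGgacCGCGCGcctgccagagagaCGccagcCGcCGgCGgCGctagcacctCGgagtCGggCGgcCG
GATA6: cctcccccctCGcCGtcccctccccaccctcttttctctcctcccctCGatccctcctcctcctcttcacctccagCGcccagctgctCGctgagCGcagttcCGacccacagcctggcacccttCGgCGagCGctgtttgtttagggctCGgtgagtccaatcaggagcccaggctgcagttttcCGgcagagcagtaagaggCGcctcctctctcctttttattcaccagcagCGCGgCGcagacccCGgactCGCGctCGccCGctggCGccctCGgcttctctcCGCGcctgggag
GREB1L had 43 CG and GATA6 had 25, against a median of 14 over the 35116 windows. Of all windows, 4.98% had as many CG as GREB1L or more, and 32.0% as many as GATA6 or more. Over the 23 called or switched genes that matched a RefSeq window by symbol, the median was 26 and the range 1 to 48. In these 23 windows the octamer occurred in 2 (the histone pair), CCAAT in 10, TATAAA in 3 and AGATAA, a form of the motif that GATA factors bind, in 1, against 10.3% of all windows for AGATAA.

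LRRC17, which encodes a secreted leucine-rich repeat protein known to restrain osteoclast formation, was also nearly lost in A4. It lies at chr7:102913000-102945111 on the plus strand, inside FBXL13, which is transcribed from the opposite strand. LRRC17 held 22, 20.5 and 18.3 CPM in A1, 0.0629, 0.205 and 0.202 CPM in A4, and 11.5, 2.32 and 6.32 CPM in the vector libraries. The vector libraries thus lay between the clones, with a ratio of A1 to A4 of 130 (95% interval 84.9 to 211). The fitted difference was -7.00 (SE 0.64, adjusted p = 0.000569), and it was -2.36 when strand was disregarded (adjusted p = 0.0402, the highest of its alternatives). The host gene differed in the other direction. FBXL13 held 14.3, 6.45 and 7.83 CPM in A1 and 34.4, 25.5 and 25.5 CPM in A4, without overlap but not called (1.58, SE 0.31, adjusted p = 0.0945). NFE4, 60.5 kb from the start of LRRC17 and also inside FBXL13 on the plus strand, was higher in A4, at 2.83, 3.39 and 4.86 CPM against 0.704, 0.430 and 0.329 CPM (2.93, SE 0.48, adjusted p = 0.0336). The promoter of LRRC17 is printed as a contrast to the CG-rich pair above (RefSeq window, GRCh38.p14, chr7:102912750-102913049, plus strand), with CG, CCAAT and TATAAA matches in capitals.
LRRC17: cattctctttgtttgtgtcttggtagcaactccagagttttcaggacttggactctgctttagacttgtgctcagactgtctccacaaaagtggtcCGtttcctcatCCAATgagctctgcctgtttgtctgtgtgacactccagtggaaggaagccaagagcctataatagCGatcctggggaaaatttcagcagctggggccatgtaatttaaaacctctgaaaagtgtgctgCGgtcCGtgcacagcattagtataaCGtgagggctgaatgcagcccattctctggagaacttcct
It had 5 CG, and 70.4% of all windows had as many or more. It held 1 CCAAT match and no TATAAA match on either strand.

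Further genes were present in A1 and low or absent in A4. ADD2, which encodes beta-adducin of the spectrin membrane skeleton, held 22, 41.5 and 40 CPM in A1 and 1.24, 3.66 and 2.22 CPM in A4. Its vector levels, 1.97, 4.49 and 4.29 CPM, overlapped those of A4, and it was called in A1 against vector (adjusted p = 0.0274). The ratio of A1 to A4 was 15.3 (95% interval 13.6 to 17.2), with a fitted difference of -3.86 (SE 0.46, adjusted p = 0.00497). LINC02074, a long noncoding RNA, held 1.41, 2.96 and 1.5 CPM in A1, no counts in A4, and 15.7, 8.33 and 7.90 CPM in the vector libraries. It was at least 89.9-fold lower in A4 than in A1, taking 3 counts over the 3 A4 libraries as the floor (adjusted p = 0.00257), and both clones lay below the vector libraries. MLPH, or melanophilin, which links melanosomes to the actin motor, had 1.20, 0.914 and 0.658 CPM in A1, no counts in A4 and 0.477, 0.742 and 0.708 CPM in the vector libraries. Its difference was at least 40.3-fold by the same floor (adjusted p = 0.0336, called in 1 of the 9 fits with a library left out).

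A rule on levels alone, at least 1 CPM in all 3 libraries of a clone and under 0.1 CPM in all 3 of the other, found 4 genes on in A1 and off in A4 and 0 the other way round. They were H2AC8, LINC02074, the unclassified locus ENSG00000280079 (5.56, 3.15 and 3.15 CPM in A1, no counts elsewhere, adjusted p = 0.00805) and ZNF597. ZNF597 is an imprinted zinc finger gene on chromosome 16 (chr16:3432414-3443504, minus strand). It held 11, 6.91 and 9.48 CPM in A1 and no counts in A4, at least 408-fold lower, and in the vector arm only replicate B had counts (1.05 CPM). It was not called (adjusted p = 0.0764, range over alternatives 3.99e-33 to 0.289). At limits of 0.5 and 0.2 CPM there were 8 genes on in A1 and 13 on in A4. The latter included BCR, SPINK5, ADGRF5, CYP2C18, KIRREL2 and PCDHA8, of which BCR alone was called. SPINK5, a protease inhibitor of skin, held 5.48, 2.57 and 4.05 CPM in A4 and 0, 0.188 and 0 CPM in A1, and was at most 0.217 CPM in the vector libraries (adjusted p = 0.105).

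**Figure D2:**
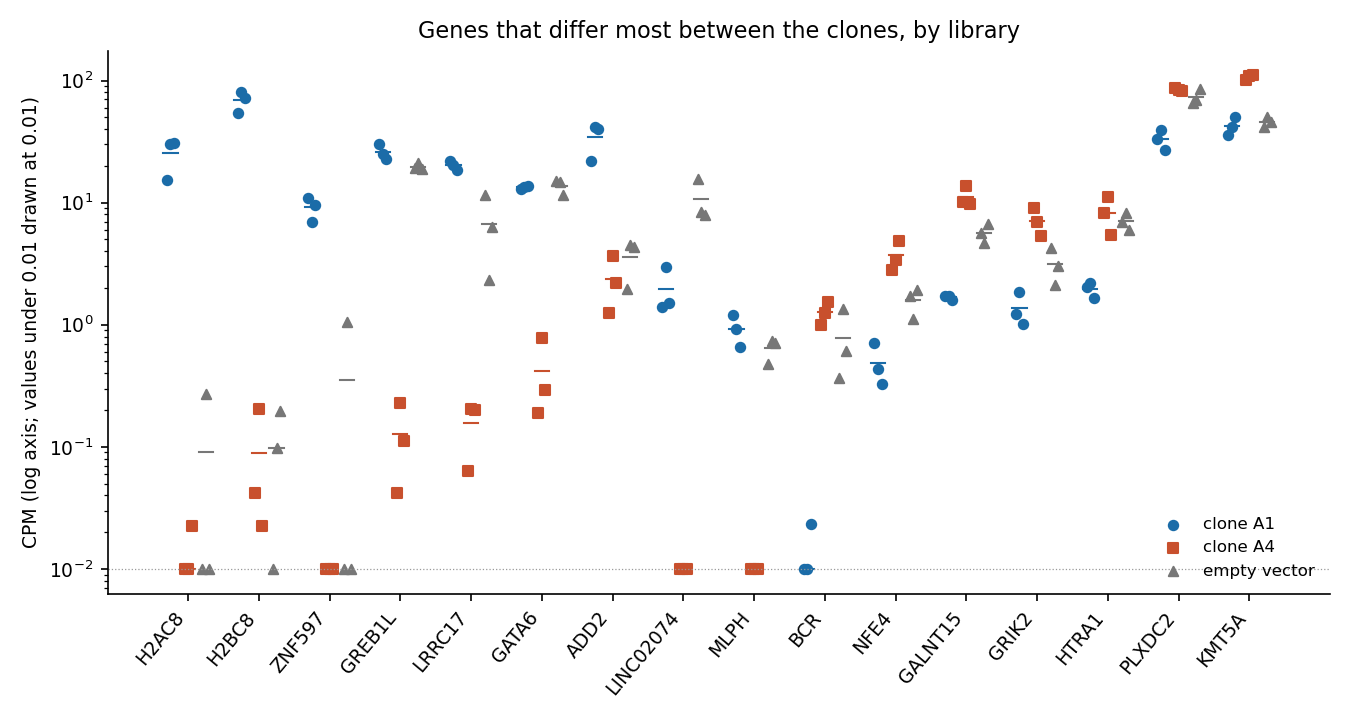
CPM in each library (log axis, values under 0.01 drawn at 0.01) for 16 selected genes that differed between the clones, with circles for clone A1, squares for clone A4 and triangles for the empty vector clones, and a bar at each group's mean. They are not the 16 with the largest differences, and ZNF597 among them was not called. H2AC8, H2BC8 and ADD2 have vector levels near those of A4, whereas GREB1L, GATA6 and MLPH have vector levels near those of A1.

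Among the 9 called genes that were higher in A4 than in A1, the vector mean lay between the clone means in all 9. BCR, the fusion partner of ABL1 in chronic myeloid leukaemia, had 0, 0 and 1 count in A1 (at most 0.0235 CPM) and 0.986, 1.25 and 1.55 CPM in A4. The vector libraries held 0.368, 1.35 and 0.610 CPM. Its ratio of A4 to A1 was 136, with a counting interval of 24 to 5390 (adjusted p = 0.0321). Counted without regard to strand, BCR was not called (4.4, adjusted p = 0.166), and it was called in 7 of 17 alternatives (adjusted p 9.76e-05 to 0.166). GALNT15, which starts mucin-type O-glycan chains, held 1.72, 1.72 and 1.60 CPM in A1, 10.1, 13.6 and 9.72 CPM in A4, and 5.59, 4.70 and 6.68 CPM in the vector libraries. Its 3 groups did not overlap, and it was the one higher gene called in all 9 fits with a library left out (2.73, SE 0.29, adjusted p = 0.00234).

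GRIK2, a kainate receptor subunit, held 1.23, 1.86 and 1.01 CPM in A1 and 9.06, 6.94 and 5.28 CPM in A4 (2.37, SE 0.40, adjusted p = 0.0392). HTRA1, a secreted serine protease, held 2.04, 2.20 and 1.67 against 8.20, 11.2 and 5.44 CPM (2.07, SE 0.33, adjusted p = 0.0321). XKR4, of the XK family of membrane proteins, held 3.87, 4.01 and 3.41 against 18.2, 18.2 and 11.7 CPM (2.09, SE 0.26, adjusted p = 0.00642). In these 3 genes every A4 library was above every A1 library. KMT5A, a histone methyltransferase, was the one higher gene with the vector level on the side of A1. It held 35.5, 41.5 and 50.6 CPM in A1, 100.3, 109.5 and 110.1 CPM in A4, and 41.4, 50.6 and 46.1 CPM in the vector libraries, with a difference of 1.33 (SE 0.18, adjusted p = 0.0104). It was the only one of the 9 called in A4 against vector (adjusted p = 0.0225). PLXDC2 and KIAA1217, both on the short arm of chromosome 10, were higher in A4 by 1.34 (SE 0.19, adjusted p = 0.0135) and 1.04 (SE 0.17, adjusted p = 0.0345). PLXDC2, a membrane protein with a plexin-like domain, held 33.0, 39.7 and 27.0 CPM in A1 and 86.3, 83.5 and 81.8 CPM in A4. Its vector libraries held 66.0, 69.5 and 85.7 CPM.

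Of the 26 called genes that were lower in A4 than in A1, 5 were called in A1 against vector, 10 in A4 against vector and 11 in neither. The vector mean was nearer to A1 than to A4 on the log2 scale in 19 of them. The more moderate differences away from chromosome 12 included DCHS2, ADGRL3, SFMBT2 and MATN2. DCHS2, a large cadherin, held 156, 134 and 93.9 CPM in A1, 40, 42.5 and 36.9 CPM in A4, and 85.7, 118 and 98.2 CPM in the vector libraries (-1.68, SE 0.21, adjusted p = 0.00642). ADGRL3, a latrophilin that binds across synapses, held 60.3, 38.3 and 50.2 against 14.4, 13.3 and 20.3 CPM (-1.63, SE 0.25, adjusted p = 0.0257). Its vector libraries, at 79.3, 50.6 and 72.4 CPM, overlapped A1 and lay above all A4 libraries. SFMBT2, a Polycomb-related protein, held 45.6, 52.8 and 43.0 against 17.1, 18.7 and 14.9 CPM (-1.48, SE 0.19, adjusted p = 0.00805). Its vector libraries, at 22.4, 28.1 and 24.4 CPM, lay between the clones and nearer to A4. MATN2, a matrilin of the extracellular matrix, fell by 1.38 (SE 0.22, adjusted p = 0.0305). Lower loci without a protein product included the noncoding RNA ENSG00000287424 on chromosome 4 (-3.42, SE 0.45, adjusted p = 0.00805) and the pseudogene RRN3P1 on chromosome 16 (-5.21, SE 0.90, adjusted p = 0.0466). Both had vector levels near those of A4. Mean levels in A1, A4 and vector were 14.3, 1.33 and 1.42 CPM for ENSG00000287424, and 4.69, 0.122 and 0.173 CPM for RRN3P1. In A1 against vector, ENSG00000287424 was called (adjusted p = 0.0274) and RRN3P1 was not (adjusted p = 0.0984). RRN3P1 shares sequence with other RRN3 copies, so its value is uncertain.

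The remaining 11 called genes that fell lay close together on the short arm of chromosome 12, within its first 12917937 bases. In order along the chromosome they were WNK1, ENSG00000250132, ERC1, ADIPOR2, FKBP4, RHNO1, TULP3, ANO2, MRPL51, KLRK1-AS1 and GPRC5A. WNK1, a kinase that controls ion transport, held 578, 698 and 744 CPM in A1, 321, 362 and 339 CPM in A4, and 630.4, 660.5 and 647 CPM in the vector libraries (-0.98, SE 0.14, adjusted p = 0.0172). ERC1, a scaffold of the cell edge and of vesicle release, held 232, 264 and 260.4 against 105, 112 and 116 CPM (-1.18, SE 0.15, adjusted p = 0.00805). ADIPOR2, an adiponectin receptor, held 172, 189 and 184 against 75.2, 95.7 and 68.7 CPM (-1.19, SE 0.17, adjusted p = 0.0157). In all 3 genes the vector libraries were above all A4 libraries. The HSP90 co-chaperone FKBP4 (-1.1), the checkpoint gene RHNO1 (-1.26), the ciliary gene TULP3 (-1.09), the mitochondrial ribosome gene MRPL51 (-1.07) and the receptor GPRC5A (-1.15) fell by similar amounts. ANO2, a chloride channel, fell by 2.05. RHNO1 and TULP3 overlap on the same strand, as do ENSG00000250132 and RAD52, so reads from shared stretches cannot be assigned to 1 gene of a pair.

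All of these except GPRC5A, which lies just beyond its end, were part of a long segment. Segments were found by the running median of the difference over 40 neighbouring genes, centred on all genes, where it passed 0.35 on either side. On chromosome 12 the segment ran from chr12:14522-12722369, with 194 genes, a median difference of -0.67 and a lowest window of -1.05. In it 156 genes had a difference below the median of all genes, 65 (33.5%, against 5.72% of all genes) were lower in A4 without overlap, and 10 were called. Because the genes of a segment were found by their values, no test was made of them. The per-library median of log2 CPM relative to the vector mean was -0.01, 0.18 and 0.17 in A1 and -0.59, -0.56 and -0.39 in A4, so the A4 libraries were below, and A1 near or slightly above, the vector. In blocks of 20 genes from the chromosome's end the median difference was -0.87, -0.88 and -1 in the first 3 blocks, -0.76, -0.49 and -0.65 in the next 3, then -0.30, -0.83, -0.35 and -0.21. It was 0.06 and 0.04 in the blocks after GPRC5A. The highest levels in the segment were those of GAPDH (763, 1364 and 1668 CPM in A1, 825, 727 and 1313 CPM in A4), CCND2 and WNK1. CCND2, or cyclin D2, held 708, 778 and 724 against 413, 565 and 337 CPM, without overlap and not called (-0.75, SE 0.18, adjusted p = 0.249).

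As measured, 33 segments were found, 25 higher and 8 lower in A4. After fold changes were corrected for the GC content and length of genes there were 12, and 10 of the 33 were overlapped by a corrected segment. Higher segments without a corrected counterpart numbered 21. Their genes had a mean GC content of 51.7% to 60.5%, against 47.8% over all genes, and their median relative to vector was -1.11 to -0.30 in replicate A of A1 and 0.23 to 1.07 in replicate C of A4, the extremes among the clone libraries. Without replicate A of A1 there were 21 segments and without replicate C of A4 there were 16. Segments that were found both ways and had the corrected libraries of the 2 clones apart numbered 8, the chromosome 12 segment included.

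**Figure D3:**
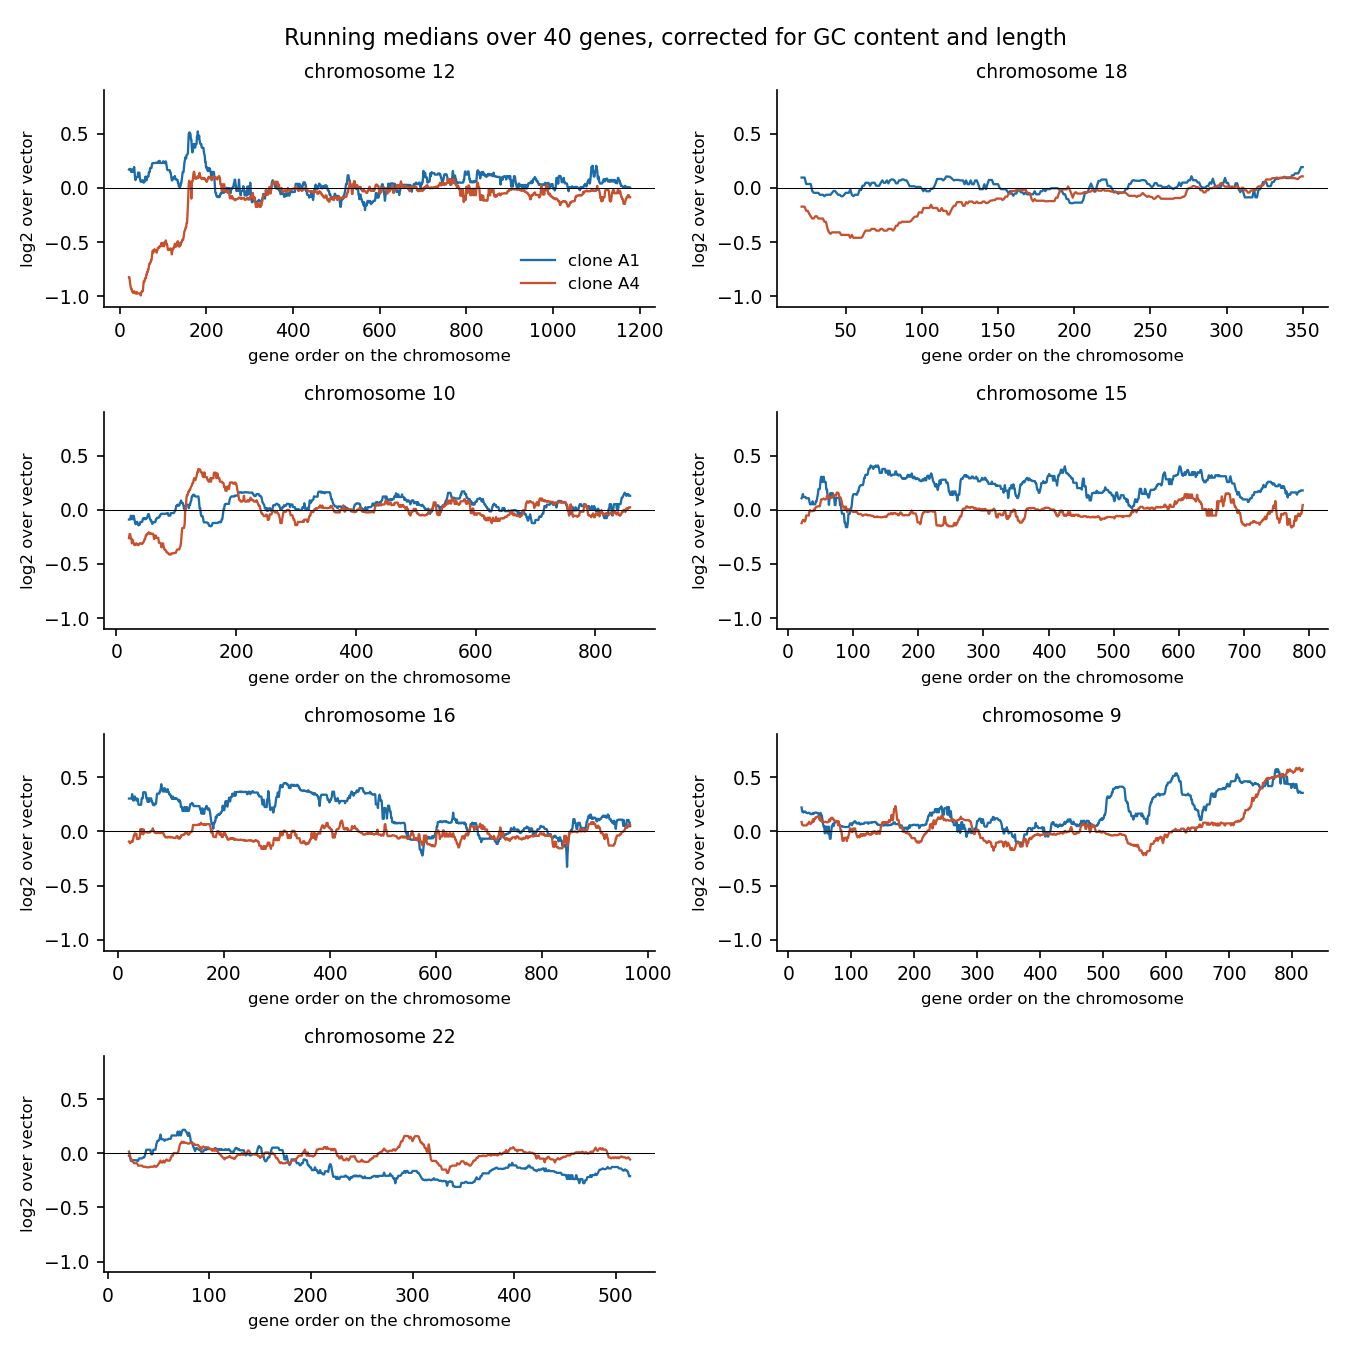
Running median over 40 genes of the level relative to the vector mean (log2, vertical axis, corrected for GC content and length) in clone A1 and clone A4, by gene order (horizontal axis) on 7 chromosomes. Clone A4 lies below vector at the start of chromosomes 12, 18 and 10, and clone A1 lies above vector along most of chromosome 15 and the first part of chromosome 16.

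In 2 other segments the A4 library medians lay further from vector than those of A1. On chromosome 18 (chr18:3190397-13726663, 81 genes) the median difference was -0.35, with library medians of 0.03, -0.11 and -0.09 in A1 and -0.34, -0.19 and -0.45 in A4. In this segment 17 genes (21.0%, against 5.72% of all genes) were lower without overlap. VAPA, which tethers the endoplasmic reticulum to other membranes, was one of its most abundant genes, at 378, 349 and 362 against 287, 323 and 209 CPM (-0.41, SE 0.17, adjusted p = 0.687). This segment did not reach GREB1L and GATA6, which lie on the other arm. On chromosome 10 (chr10:17589032-29736959, 66 genes) A4 was higher by 0.29, with library medians of -0.04, -0.09 and -0.09 in A1 and 0.37, 0.21 and 0.16 in A4. It held the called genes PLXDC2 and KIAA1217 and 21 genes (31.8%, against 7.92% of all genes) higher without overlap. In both called genes the vector mean was nearer to A4 than to A1. PLXDC2 means were 33.2, 83.9 and 73.7 CPM in A1, A4 and vector, and those of KIAA1217 112, 231 and 178 CPM. The vector library medians of the segment were 0.08, -0.23 and 0.14. Among its most abundant genes, WAC held 414, 423 and 425 against 519.9, 561 and 472 CPM, and YME1L1 298, 277 and 322 against 387, 365 and 368 CPM, neither called. The start of the higher segment was overlapped by a stretch nearer the chromosome's end (chr10:12563151-19816278, 48 genes) with a median difference of -0.35. That stretch had A4 library medians of -0.32, -0.33 and -0.43, but was not found after the correction (-0.31).

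In 3 segments clone A1 was above vector while A4 was near it. On chromosome 15 (chr15:33972059-56918571, 234 genes) the A1 medians were 0.27, 0.27 and 0.28 and the A4 medians 0.04, -0.06 and -0.05. There 57 genes (24.4%, against 5.72% of all genes) were lower in A4 without overlap. THBS1, a secreted adhesion protein, held 692, 778 and 1024 CPM in A1 and 559, 555 and 567 CPM in A4 (-0.57, SE 0.18, adjusted p = 0.458). On chromosome 16 (chr16:10326434-27453393, 161 genes) the A1 medians were 0.18, 0.29 and 0.33 and the A4 medians -0.05, 0.04 and -0.11. SMG1, a kinase of nonsense-mediated decay, held 477, 441 and 407 against 326, 332 and 339.6 CPM (-0.41, SE 0.15, adjusted p = 0.591). On chromosome 9 (chr9:114784652-127408424, 81 genes) the A1 medians were 0.28, 0.35 and 0.27 and the A4 medians -0.09, -0.03 and -0.14. There 27 genes (33.3%, against 5.72% of all genes) were lower in A4 without overlap. RAB14, a GTPase of endosomes, held 247, 237 and 224 against 160.2, 213 and 123 CPM (-0.51, SE 0.19, adjusted p = 0.581). The pseudogene RRN3P1, on chromosome 16, was the only gene called in these 3 segments, against 0.161% called of all genes. The median differences of the segments were -0.37, -0.36 and -0.40.

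The last pair of segments was less distinct. On chromosome 22 (chr22:27978014-42720870, 246 genes) A4 was higher by 0.37, and 0.20 after the correction. As measured, replicate A of A1 was at -0.80 and the other A1 libraries at -0.22 and -0.15, with A4 at -0.04, -0.02 and 0.25, and after correction A1 was at -0.16, -0.20 and -0.20. On chromosome 19 (chr19:19538248-29617237, 62 genes) the median difference was -0.26, but the libraries overlapped as measured, at 0.76, 0.53 and 0.47 in A1 and 0.54, 0.33 and 0.28 in A4.

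**Figure D4:**
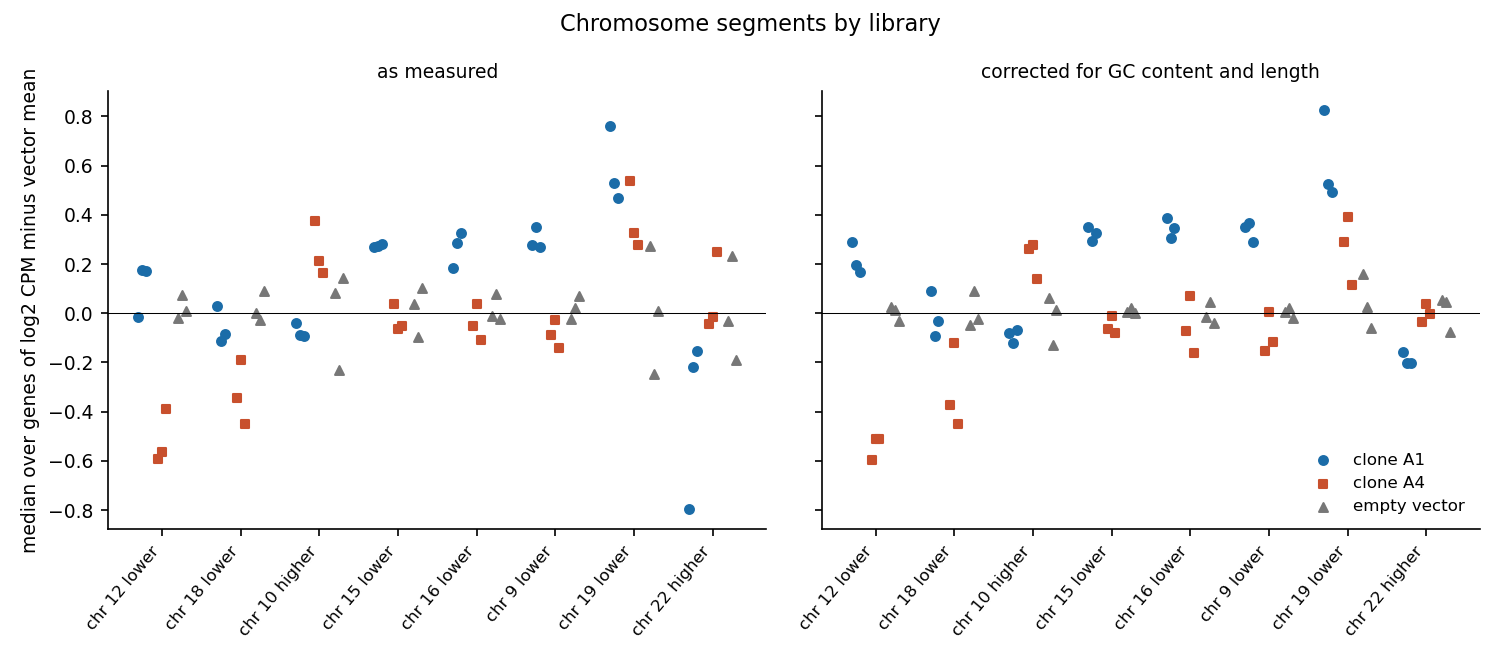
Median over the genes of each of the 8 segments of log2 CPM minus the gene's vector mean, per library, as measured (left) and corrected for GC content and length (right), with circles for clone A1, squares for clone A4 and triangles for the empty vector clones. Clone A4 is lowest in the chromosome 12 segment, at -0.59 to -0.39 as measured, and in the segments on chromosomes 15, 16 and 9 all clone A1 libraries lie above all clone A4 libraries.

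Gene lists were then read for pathways, as counts and medians beside those of all genes (9 higher and 26 lower called, median 0.04). Over 38 lists, 7 members were called: H2AC8 and H2BC8 among 39 replication-dependent histones, GATA6 and GREB1L among 28 GATA and mesoderm factors, ADGRL3 among 48 synaptic adhesion genes, and, higher in A4, GRIK2 among 14 glutamate receptor genes and GALNT15 among 27 glycosyltransferases. No other list had a called member, and the rest is given as values. The lists were chosen with earlier results of these data known, so called members may reflect that choice. GREB1L, described above as a gene of kidney formation, was included in the list of GATA and mesoderm factors. The calls in that list are therefore not read as a pathway result.

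Cell cycle lists lay on the lower side in A4. Of 46 genes of G2 and mitosis, 40 had a negative difference, with a median of -0.27, against 10137 of 21682 over all genes. Without overlap, 10 (21.7%) were lower and 0 higher, against 5.72% and 7.92% of all genes. The library medians relative to vector were 0.21, 0.18 and 0.48 in A1 and -0.02, -0.13 and 0.17 in A4, and the highest A4 library lay just below the lowest of A1. CDK1, the mitotic kinase, held 398, 285 and 322 CPM in A1 and 241, 184 and 214 CPM in A4 (-0.65, SE 0.28, adjusted p = 0.712), and the spindle checkpoint kinase BUB1B held 139, 134 and 173 against 90.5, 103 and 96.3 CPM (-0.63, SE 0.17, adjusted p = 0.308). Of 50 genes of DNA replication, 35 had a negative difference and 9 (18%, against 5.72% of all genes) were lower without overlap, with a median of -0.17. The library medians overlapped (-0.17, 0.09 and 0.29 in A1 and -0.21, -0.08 and 0.02 in A4). MCM10, a replication initiation factor, held 83.4, 91.3 and 118 against 55.9, 75.3 and 81.1 CPM. Over all alternatives the medians ranged from -0.37 to -0.18 for G2 and mitosis and from -0.27 to -0.08 for DNA replication, which was at -0.08 without replicate C of A1 and at -0.11 without replicate A of A4.

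Targets of p53 were mostly on the higher side in A4, with 25 of 29 positive (11544 of 21682 over all genes) and a median of 0.31. Without overlap, 7 (24.1%) were higher and 1 lower, against 7.92% and 5.72% of all genes. Both clones lay below vector, at -0.53, -0.43 and -0.24 in A1 and -0.18, -0.09 and -0.03 in A4. CDKN1A, the cyclin-dependent kinase inhibitor p21, held 43.8, 59.6 and 68.3 CPM in A1 and 73.1, 92.5 and 96.0 CPM in A4 (0.61, SE 0.23, adjusted p = 0.591). EDA2R, a death-domain receptor, held 38.4, 43.0 and 46.6 against 63.3, 71.0 and 58.1 CPM (0.59, SE 0.17, adjusted p = 0.341). TIGAR, which lies in the chromosome 12 segment, went the other way, at 81.9, 57.1 and 64.3 against 41.5, 44.3 and 32.9 CPM. The list's median ranged from 0.18 to 0.42, and was 0.18 after correction for GC content and length and 0.18 without replicate A of A1.

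Clustered protocadherins, cell surface proteins whose promoters are chosen differently from cell to cell and kept by a clone, had the highest list median as measured, 0.42. Without overlap, 12 of 52 members (23.1%) were higher and 2 lower, against 7.92% and 5.72% of all genes. PCDHA10 held 1.90, 5.65 and 2.49 CPM in A1, 20, 15.3 and 11.8 CPM in A4 and 3.23, 2.46 and 3.44 CPM in the vector libraries, and missed the threshold (2.23, SE 0.40, adjusted p = 0.0665). PCDHGA3 held 0.176, 1.24 and 0.588 against 2.24, 4.64 and 2.71 CPM. Library medians overlapped, at 0.49, 0.46 and 0.16 in A1 and 0.79, 0.83 and 0.41 in A4, and the list's median was 0.22 without replicate C of A1 and 0.28 without replicate B of A4. Members share exons at the 3′ end of each cluster, so reads there cannot be assigned to 1 of them.

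Matrix and bone genes were on the higher side as measured. Collagens had a median of 0.31 with 7 of 35 (20%, against 7.92% of all genes) higher without overlap. The median was 0.04 after the correction for GC content and length and 0.12 without replicate C of A4. COL1A1, the main collagen of bone, held 532, 949.7 and 992 CPM in A1 and 1238, 1284 and 1883 CPM in A4, with 1271, 1505 and 1090 CPM in the vector libraries (0.83, SE 0.24, adjusted p = 0.359). COL5A2 held 71.3, 61.0 and 47.3 against 121, 162 and 105 CPM (1.11, SE 0.26, adjusted p = 0.222). TNFRSF11B, the decoy receptor osteoprotegerin, held 14.6, 13.6 and 17.2 against 27.2, 34.7 and 28.1 CPM (0.99, SE 0.20, adjusted p = 0.105), and the osteoblast list's median was 0.26, or 0.15 without replicate B of A1, replicate C of A1 or replicate B of A4. In all 3 genes the A4 libraries were above those of A1, and the vector libraries of COL1A1 overlapped those of A4.

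RNA classes tied to the cap-binding complex showed no called member beyond the histone pair. Among 15 genes of the complex and its partners, 0 were called and the median was -0.20, or -0.09 without replicate A of A1 and -0.13 without replicate C of either clone. Without overlap, 3 of the 15 (20%) were lower and 2 (13.3%, NCBP2 included) higher, against 5.72% and 7.92% of all genes. Replication-dependent histones, the pair included, varied on both sides, with 25 of 39 negative and a median of -0.08, which became -0.34 after the correction. Small nucleolar and Cajal body RNAs had a median of -0.01 over 163 genes. Small nuclear RNAs had a median of -0.61 over 23 genes, the lowest of all lists, with 0 called and 1 higher without overlap. Their library medians overlapped widely, at 0.80, 0.17 and -0.16 in A1 and -0.64, 0.17 and -0.47 in A4, and the median was -0.27 without replicate A of A1, -0.30 without replicate A of A4 and -0.98 without replicate B of A4. The labels give the molecule as polyA RNA and the library kit as a ribodepletion kit, and most histone mRNAs of this kind and small nuclear RNAs carry no poly(A) tail. The 13 mitochondrially encoded mRNAs had a median of 0.23 (0.10 without replicate A of A1 and 0.08 without replicate B of A4), cytosolic ribosomal proteins -0.03 and nuclear-encoded respiratory chain genes -0.03. Of the respiratory chain, NDUFA9, in the chromosome 12 segment, held 32.5, 25 and 29.4 against 12.5, 15.4 and 9.58 CPM (-1.21, SE 0.22, adjusted p = 0.0736).

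**Figure D5:**
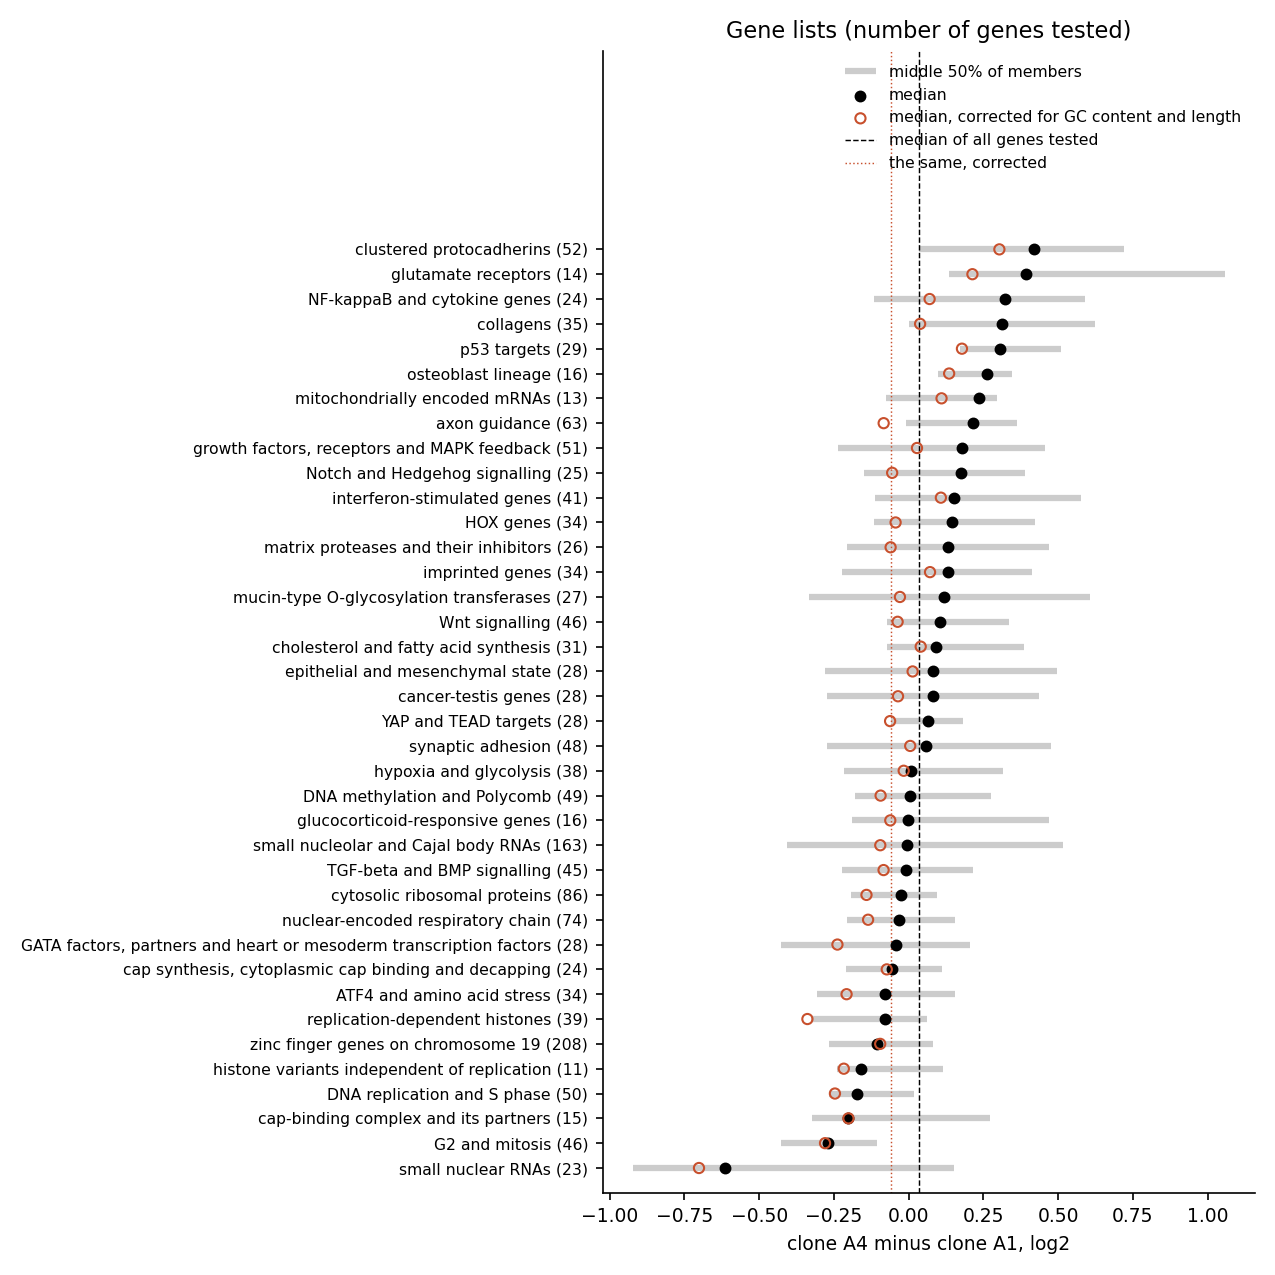
Difference between the clones (A4 minus A1, log2) for 38 gene lists, with the number of genes tested in parentheses. Filled points are medians, grey bars the middle 50% of members, open circles medians after correction for GC content and length, and vertical lines the medians of all genes tested before (0.04) and after (-0.06) it. Clustered protocadherins (0.42) and small nuclear RNAs (-0.61) are at the ends.

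In the lists with called members not described above, the median was -0.04 for GATA and mesoderm factors, 0.06 for synaptic adhesion, 0.39 for glutamate receptors and 0.12 for O-glycosylation transferases. The glutamate receptor median was 0.17 without replicate A of A1 or replicate C of A4, 0.83 without replicate B of A1, 0.59 without replicate C of A1 and 0.60 without replicate B of A4. Its library medians were -1.29, -0.06 and -0.07 in A1 and 0.17, -0.16 and 0.63 in A4, with replicate A of A1 far below the rest and the clones overlapping. Among the remaining lists, all without a called member, it was -0.06 for cap synthesis and decapping, -0.16 for histone variants independent of replication, -0.08 for ATF4 and amino acid stress, -0.11 for zinc finger genes on chromosome 19, -0.01 for TGF-beta and BMP signalling, -0.0035 for glucocorticoid-responsive genes, 0.0043 for DNA methylation and Polycomb, 0.01 for hypoxia and glycolysis and 0.06 for YAP and TEAD targets. It was 0.08 for epithelial and mesenchymal state, 0.08 for cancer-testis genes, 0.09 for cholesterol and fatty acid synthesis, 0.11 for Wnt signalling, 0.13 for matrix proteases and their inhibitors, 0.13 for imprinted genes, 0.14 for HOX genes, 0.15 for interferon-stimulated genes, 0.17 for Notch and Hedgehog signalling, 0.18 for growth factors and receptors, 0.21 for axon guidance and 0.32 for NF-kappaB and cytokine genes. Shares without overlap were above those of all genes (5.72% lower, 7.92% higher) in some of these lists too. Of 34 ATF4 genes, 6 (17.6%) were lower and 0 higher, and of 34 imprinted genes, 8 (23.5%) were higher and 2 lower. After the correction for GC content and length the median of all genes was -0.06, and the medians of 10 of the 38 lists had the other sign. These were axon guidance (-0.08), DNA methylation and Polycomb (-0.09), matrix proteases (-0.06), Notch and Hedgehog signalling (-0.06), YAP and TEAD targets (-0.06), Wnt signalling (-0.04), HOX genes (-0.04), cancer-testis genes (-0.04), O-glycosylation transferases (-0.03) and hypoxia and glycolysis (-0.02). The NF-kappaB median was 0.07 after correction, and 0.04 without replicate A of A1 and 0.16 without replicate B of A4. Some leading members are given as values. ERBB3, a growth factor receptor, held 3.55, 1.69 and 3.08 CPM in A1 and 1.13, 0.796 and 1.05 CPM in A4 (-1.48, SE 0.45, adjusted p = 0.424). PDGFC, a platelet-derived growth factor, held 17.3, 8.82 and 12.3 against 5.77, 3.71 and 4.77 CPM (-1.43, SE 0.35, adjusted p = 0.258). WNT7B, a Wnt ligand, held 0.176, 0.457 and 1.39 against 2.98, 2.02 and 5.02 CPM (2.28, SE 0.68, adjusted p = 0.377). CT45A1, a cancer-testis gene, held 1.48, 2.20 and 3.86 against 0.441, 0.773 and 0.403 CPM (-2.22, SE 0.60, adjusted p = 0.310), with at most 0.390 CPM in the vector libraries. ZEB2, a repressor of epithelial genes, held 2.50, 3.74 and 0.917 against 0.902, 0.728 and 0.336 CPM (-1.86, SE 0.58, adjusted p = 0.446). The clones did not overlap in any of these 5 genes, and none was called.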

How the data were processed

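RNA was sequenced from 9 libraries of U2-OS clones. Sample titles and the kit named in the labels' protocols describe ribodepletion, while the labels give the molecule as polyA RNA. Which holds bears on the levels of RNAs without a poly(A) tail, such as histone mRNAs and small nuclear RNAs. Reads were aligned with STAR 2.7.1a to GRCh38, per the submitters' processing notes. The deposited files hold whole-number counts of reads per gene, and the column for the strand of the gene was used. Library sizes and tests exclude the 4 summary lines without a gene (48.9% to 63.6% of reads in the clone libraries). Gene names and positions came from GENCODE 44, and promoter windows from RefSeq (GRCh38.p14).

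Clones were compared with edgeR 4.0.16 in R 4.3.3 (limma 3.58.1), by the robust quasi-likelihood test with 3 groups over the 9 libraries, TMM scaling, the default filter on low counts and Benjamini-Hochberg adjustment over 21682 genes, with a threshold of 0.05. The common biological coefficient of variation was 0.411. CPM used TMM-scaled library sizes, and log2 CPM of single libraries a prior count of 2. Fold changes were also corrected by the residual from cubic polynomials of GC content and log10 exon length. Segments were runs of 40-gene medians past 0.35. Ratios of counts carry 95% exact intervals, and a group without counts was set to a floor of 3 counts over its libraries. Both cover counting error only. The fit was tested on simulated data.

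The genes and lists were chosen with earlier results of these data known. Named were NCBP2, up to 15 called genes with a symbol in each direction by fold change, up to 10 switched genes, up to 3 members per list, and in each segment the called genes and the 3 most abundant. H2BC7, H4C5, H1-1, H3C2, H3C6, MIB1, SNRPD1, FBXL13, SPINK5, GPRC5A, ENSG00000287424 and the other genes of the looser on and off rule were chosen after their values were seen. Alternatives were DESeq2 1.42.0, voom with library weights, RLE size factors, no filter, the 6 clone libraries alone, a replicate block, counts without regard to strand and leaving out each library.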

Additional observations from a re-analysis of the deposited data

How the results depend on the processing

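No called gene that is named and none of the 8 segments described changed sign under the alternatives run for them, but the medians of 19 of the 38 lists took the other sign under at least 1, such as axon guidance (0.21, and -0.08 after correction for GC content and length), matrix proteases (0.13, and -0.11 with voom) and Notch and Hedgehog signalling (0.17, and -0.07 without replicate C of A4). The 35 calls (9 higher, 26 lower) became 235 with DESeq2 (123 higher, 112 lower), 149 with voom (65 and 84) and 231 without the filter on low counts (131 and 100), with 35, 34 and 35 of the original calls shared. They were 24 with the 6 clone libraries alone, 37 without regard to strand, and 10 to 56 when 1 library was left out. Whether the replicate letters pair the clones was left undecided, because the labels do not say if a letter marks a shared batch. The correlation of deviations was 0.126 for A, -0.026 for B and 0.179 for C. A library correlated best with its own letter for A and C but not B. With the replicate block there were 51 calls, and 70 with the block in the 6 clone libraries alone (29 higher, 41 lower). NCBP2 passed the threshold with DESeq2 (1.27), voom (1.18), no filter (1.27), the replicate block (1.22) and the block in the 6 libraries alone (1.19), and leaving out 1 library gave 0.97 to 1.51. Genes on in 1 clone and off in the other numbered 11 with the higher limit at 0.5 CPM and 4 to 6 with a library left out. Segments numbered 70 with windows of 25 genes, 7 with a limit of 0.5, 12 after the correction (5 higher and 7 lower in A4, against 25 and 8) and 16 to 74 with a library left out. The correction of list medians was chosen after seeing the data. Called list members numbered 35 with DESeq2, 25 with voom, 43 without the filter, 15 with the block in the 6 libraries alone and 5 to 12 with a library left out. The causes of these shifts were not tested. Genes with few counts, such as BCR in A1, are limited by depth.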
